A study of Mus musculus with 6 samples.

Results

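The actin cytoskeleton genes that smooth muscle is best known for were followed in SC4 cells after knockdown of YAP: smooth muscle alpha-actin (Acta2), gamma-enteric actin (Actg2), transgelin (Tagln), the 3 calponins (Cnn1, Cnn2 and Cnn3) and the 4 tropomyosins (Tpm1, Tpm2, Tpm3 and Tpm4). They were taken by symbol and are 10 of the 23366 genes listed. SC4 is 1 line of cultured mouse cells from an Nf2-null schwannoma (Nf2 encodes the tumour suppressor merlin), and both groups carry that loss. The cells received either a pool of siRNAs against YAP or a control siRNA. RNA was taken 48 hours after transfection, poly(A) RNA was sequenced, and 3 libraries were made per condition. The labels number the libraries 1 to 3 but do not say whether cultures were separate, and a p-value here reflects how these libraries vary, possibly for technical reasons alone.

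YAP is a transcriptional coactivator restrained by the Hippo pathway, of which merlin is an upstream part. It acts mainly through TEAD factors at DNA. Actin genes of the smooth muscle kind are also classic targets of serum response factor, which binds the CArG box and is driven by cofactors that sense free actin. Tropomyosins are coiled-coil dimers that lie along the actin filament and set which myosins and severing proteins reach it, while calponins and transgelin share a calponin homology domain and bind filaments from the side. Smooth muscle alpha-actin, transgelin and basic calponin (Cnn1) are used as markers of smooth muscle cells and of myofibroblasts.

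Values below are normalized counts, gene read counts divided by 1 factor per library. The libraries held 18025132 to 60078880 reads in genes, and 1 read was worth 0.461 to 1.52 normalized counts. Yap1 itself had 936, 571 and 475 normalized counts in the YAP siRNA libraries 1, 2 and 3, against 4749.6, 5732 and 4751 in the control libraries. The libraries numbered 1 stood apart from those numbered 2 and 3 in both conditions: the first principal component, with 63.5% of the variance, separated them, and the siRNA separated libraries on the second, with 23.1%. Of the Schwann cell markers, Sox10 and S100b were at most 15.6 and 18.7 normalized counts in any library, while Mbp was at 1077 or more in every one.

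A gene was tested where its mean was at least 10 normalized counts, which left 12820 genes and 9 of the 10 members. The test was limma on log2(value + 1) with Benjamini-Hochberg adjustment over those 12820 genes and a threshold of 0.05. Without a term for the replicate number it called no gene (0.0% higher, 0.0% lower), although 1558 genes and 3 members had an unadjusted p under 0.05, edgeR called 0 and DESeq2 called 2.57% of genes higher and 3.11% lower. Because libraries with the same number deviated together, a second limma fit took the number as a block. It called 8.32% of all genes higher and 8.96% lower. In that fit 5 members rose with YAP siRNA (Acta2, Tagln, Cnn2, Cnn3 and Tpm4), 1 fell (Tpm2) and 3 did not pass (Actg2, Tpm1 and Tpm3). All 6 calls ended when the blocked limma fit was run without its trend of variance on level (adjusted p 0.0842 to 0.186) or with no filter on low values (adjusted p 0.209 to 0.439). The words rose and fell below refer to the blocked fit, and for the members the adjusted p without the block stands beside it. For the genes outside the set that are named below as called among neighbours, lists and markers, limma without the block gave adjusted p values of 0.165 to 0.772. The median log2 fold change of the 9 tested members was 0.49, against 0.0094 over all genes tested.

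Smooth muscle alpha-actin had the largest fold change among the members. Acta2 had 85.3, 566 and 830.4 normalized counts in the YAP siRNA libraries 1, 2 and 3, against 62.2, 28.8 and 73.7 in the control libraries, from 71, 561 and 551 reads against 41, 37 and 160. Every YAP siRNA library was above every control library, but the first lay close to the controls and the other two far above them. Acta2 rose by 2.72 on the log2 scale (SE 0.60, 95% interval 1.36 to 4.09), a 6.61-fold difference, with a limma adjusted p of 0.0185 (blocked) and 0.294 (unblocked). Within the numbers, the log2 difference was 0.45, 4.25 and 3.48. Without the libraries numbered 2 it was 1.96 with an adjusted p of 0.104 in limma with the block, and without those numbered 1 it was 3.86. DESeq2 without the block gave 3.17 with an adjusted p of 0.00234. In a bulk sample, a change in the number of cells that make an RNA and a change in RNA per cell cannot be told apart.

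Gamma-enteric actin, the other actin of smooth muscle, was a low gene here. Actg2 had 43.3, 20.2 and 36.2 normalized counts in the YAP siRNA libraries, against 34.9, 5.46 and 19.8 in the control libraries. The groups overlapped, although the YAP siRNA library was the higher of each numbered pair. Its log2 difference was 0.95 (SE 0.45, 95% interval -0.068 to 1.97) and did not pass, with a limma adjusted p of 0.17 (blocked) and 0.673 (unblocked).

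Transgelin, an early marker of the smooth muscle lineage that cross-links actin, moved in the same direction as Acta2. Tagln had 44.5, 107 and 140.2 normalized counts in the YAP siRNA libraries, against 19.7, 32.7 and 20.7 in the control libraries, from 37, 106 and 93 reads against 13, 42 and 45. Its groups did not overlap, and library 1 was again the lowest of the YAP siRNA group. Tagln rose by 1.84 on the log2 scale (SE 0.38, 95% interval 0.98 to 2.69), with a limma adjusted p of 0.0147 (blocked) and 0.251 (unblocked). The call ended in limma with the block without the libraries numbered 2 (1.92, adjusted p 0.101) and without those numbered 3 (1.41, adjusted p 0.0672).

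Basic calponin, the calponin most tied to differentiated smooth muscle, was at the floor of detection. Cnn1 was counted at 0, 2 and 0 reads in the YAP siRNA libraries and at 0, 2 and 12 reads in the control libraries, and it was not tested. A count of 0 allows up to 3 reads, which is 3.61 and 4.52 normalized counts in the YAP siRNA libraries 1 and 3 and covers counting error only. Control library 3, at 5.53, was above both limits, and the other 2 control libraries were at 0 and 1.56.

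The neutral calponin, Cnn2, a calponin of non-muscle as well as muscle cells, gave the tightest difference of the family. Cnn2 had 6156, 5009.5 and 5386 normalized counts in the YAP siRNA libraries, against 4159, 2863 and 3574 in the control libraries. All 3 YAP siRNA libraries were above all 3 control libraries, and the 3 numbered pairs differed by similar amounts (0.57, 0.81 and 0.59 on the log2 scale). Cnn2 rose by 0.65 on the log2 scale (SE 0.091, 95% interval 0.45 to 0.86), with a limma adjusted p of 0.00398 (blocked) and 0.241 (unblocked). Without the libraries numbered 2 the value was 0.58 with an adjusted p of 0.068 in limma with the block.

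The acidic calponin, Cnn3, had 7064, 3348 and 3911 normalized counts in the YAP siRNA libraries, against 5959, 1744 and 3204 in the control libraries. The groups overlapped because both libraries numbered 1 were high, and within each number the YAP siRNA library was the higher. Cnn3 rose by 0.49 on the log2 scale (SE 0.14, 95% interval 0.18 to 0.81), with a limma adjusted p of 0.0429 (blocked) and 0.782 (unblocked). Without the libraries numbered 2 the difference was 0.27 with an adjusted p of 0.37 in limma with the block. Of the 31-base words in the longest coding Cnn3 transcript, 27.1% also occur in annotated pseudogenes, so the count of Cnn3 is uncertain where reads were shared.

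**Figure D1:**
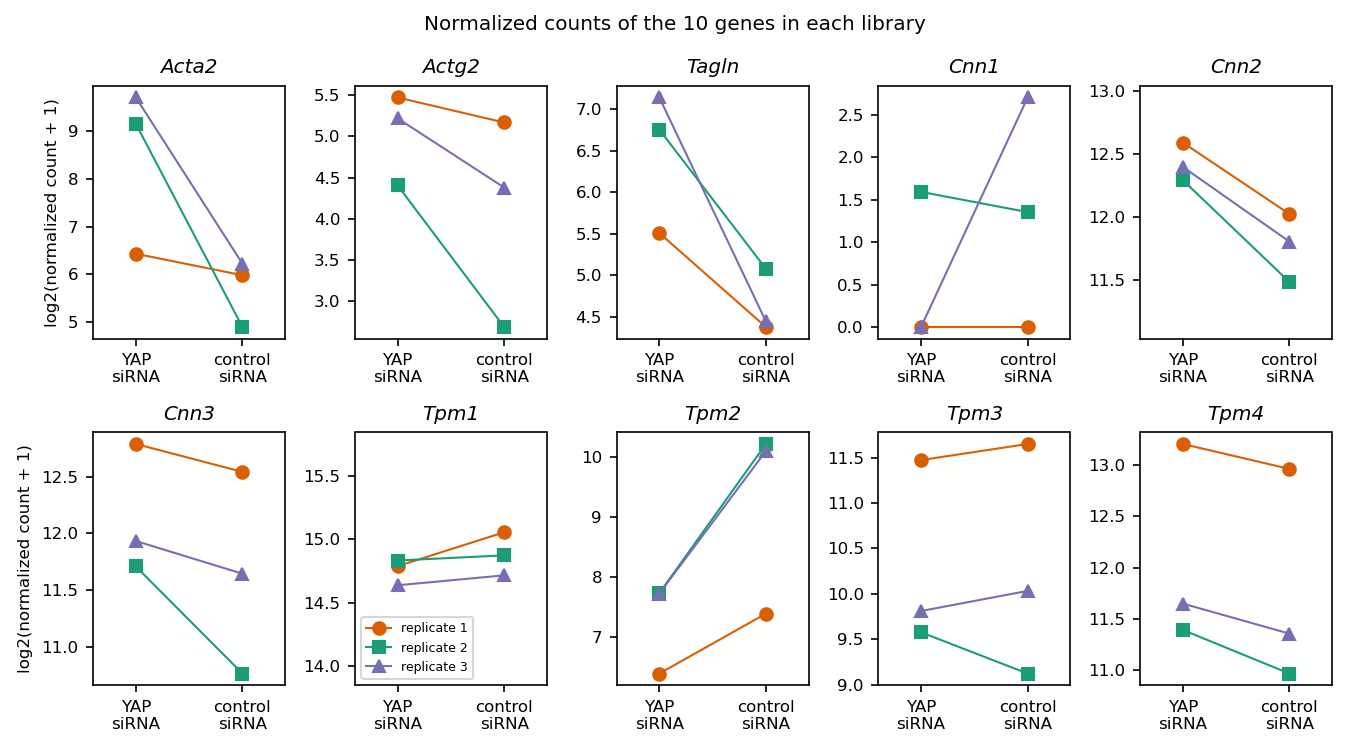
Normalized counts of the 10 members in each library as log2(count + 1), with a separate range in each panel, YAP siRNA left of control siRNA, where lines join libraries of the same number. Acta2, Tagln and Cnn2 do not overlap between the groups, Tpm2 is lower in the YAP siRNA library of every number, and the replicate 1 points of Tpm3 and Tpm4 lie above the others in both groups.

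Tropomyosin 2, beta-tropomyosin, was the one member that fell. Tpm2 had 82.9, 212 and 211 normalized counts in the YAP siRNA libraries, against 167, 1196 and 1102 in the control libraries. The groups overlapped only because control library 1 lay below the YAP siRNA libraries 2 and 3, and within every number the YAP siRNA library was the lower. Tpm2 fell by 1.96 on the log2 scale (SE 0.28, 95% interval -2.59 to -1.32), with a limma adjusted p of 0.00419 (blocked) and 0.42 (unblocked). The within-number differences were -1.0, -2.49 and -2.38. Leaving out the libraries numbered 1, 2 or 3 gave -2.43, -1.69 and -1.75, and without those numbered 2 the limma adjusted p with the block was 0.0324. In limma without the block, leaving out control library 1 alone, which kept the low YAP siRNA library 1, gave -2.88 with an adjusted p of 0.0385.

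Alpha-tropomyosin, Tpm1, the most abundant of the family, had 28302, 29198 and 25484 normalized counts in the YAP siRNA libraries, against 34102, 30035 and 26915 in the control libraries. The groups overlapped and each numbered pair differed by little. Its log2 difference was -0.13 (SE 0.087, 95% interval -0.33 to 0.069) and did not pass, with a limma adjusted p of 0.33 (blocked) and 0.807 (unblocked). The interval leaves out any change of the size seen in Tpm2.

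Tpm3 and Tpm4 are tropomyosins found in most non-muscle cells, though not the only ones. Tpm3 had 2843, 762 and 897 normalized counts in the YAP siRNA libraries, against 3215, 556 and 1046 in the control libraries. Tpm4 had 9445, 2684 and 3208 in the YAP siRNA libraries, against 7979, 1999 and 2618 in the control libraries. In both genes the libraries numbered 1 were the highest of their group, so the groups overlapped. Tpm4 rose by 0.32 on the log2 scale (SE 0.088, 95% interval 0.12 to 0.52), with a limma adjusted p of 0.0405 (blocked) and 0.934 (unblocked). That call ended in limma with the block without the libraries numbered 2 (0.27, adjusted p 0.366) and without those numbered 3 (0.33, adjusted p 0.128). Tpm3 differed by 0.018 (SE 0.15, 95% interval -0.32 to 0.35), with a limma adjusted p of 0.943 (blocked) and 0.996 (unblocked), and its sign turned below 0 without the libraries numbered 2.

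**Figure D2:**
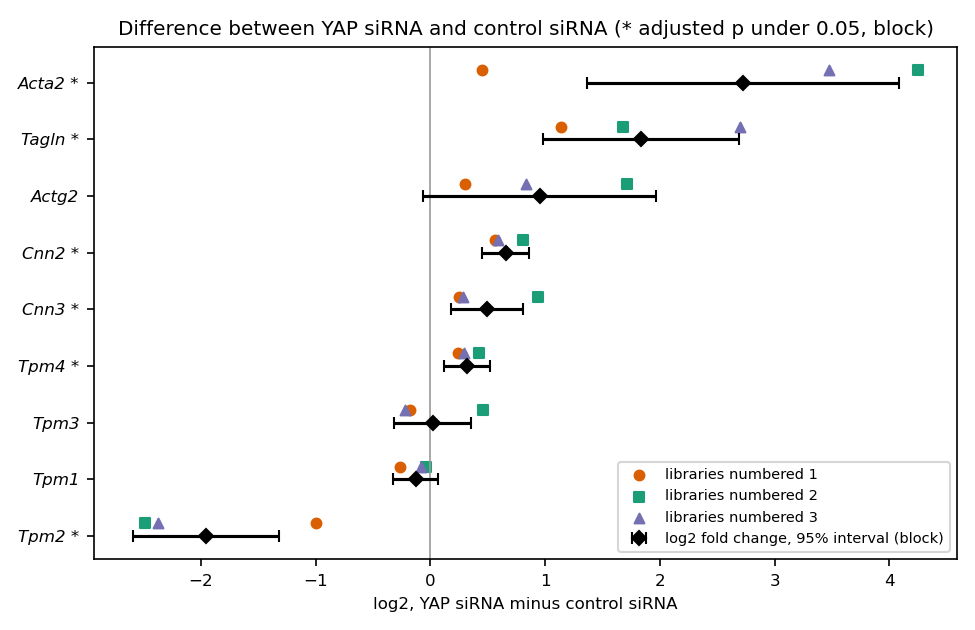
Log2 difference of YAP siRNA against control siRNA for the 9 tested members, from the limma fit with the replicate number as block, with 95% intervals and the within-number differences as points. Acta2 and Tagln lie furthest above 0 and Tpm2 furthest below it, while the intervals of Tpm1, Tpm3 and Actg2 include 0.

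Groups that do not overlap are counted without any model. Of the 9 tested members 3 had every YAP siRNA library above every control library (Acta2, Tagln and Cnn2) and 0 had every one below, while 9.47% of all tested genes were wholly higher and 9.49% wholly lower. With 3 libraries against 3 a two-sided exact permutation test that ignores the replicate numbers, as used here, cannot go below 0.1. It gave 0.1 for Acta2, Tagln and Cnn2, 0.2 for Actg2, 0.3 for Tpm2, 0.4 for Cnn3 and Tpm1, 0.5 for Tpm4, 0.7 for Cnn1 and 1.0 for Tpm3.

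Ratios within a library were taken as differences of log2(value + 1), which depend on its scaling through the added 1, most for the low genes Actg2 and Cnn1. The 8 pairs compared were chosen with earlier results of these data known. Tpm1 over Tpm2, on the log2 scale, was 8.40, 7.10 and 6.91 in the YAP siRNA libraries, against 7.67, 4.65 and 4.61 in the control libraries. The YAP siRNA library was the higher of every numbered pair, by 0.73, 2.45 and 2.30, but control library 1 lay above the YAP siRNA libraries 2 and 3, and the exact permutation p was 0.3 (0.48 adjusted over the 8 pairs). Tpm2 over Tpm4 was lower with YAP siRNA within each number, by -1.24, -2.92 and -2.67, with an exact permutation p of 0.3. Tpm1 over Tpm4 differed by -0.51, -0.47 and -0.37 within the numbers, a narrow spread, while its groups overlapped widely (exact permutation p = 0.6). The exact test of these ratios also ignored the numbers, so it did not use the within-number differences.

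Between the families, the log2 ratio of Acta2 to Tpm2 was 0.041, 1.41 and 1.97 in the YAP siRNA libraries, against -1.41, -5.33 and -3.88 in the control libraries. In normalized counts, not corrected for length, Acta2 exceeded Tpm2 in every YAP siRNA library and was below it in every control library. In YAP siRNA library 1 this order rested on 71 reads of Acta2 against 69 of Tpm2. The mean difference of the log2 ratio between the siRNAs was 4.68. As these are the members with the largest rise and the largest fall in the same libraries, their ratio is a description and no p is given for it. Acta2 over Actg2 differed by 1.77 with overlapping groups (0.15, 2.53 and 2.64 within the numbers, exact permutation p = 0.3), and Cnn2 over Cnn3 by 0.16 (0.32, -0.13 and 0.30, p = 0.7 in the same exact test). The exact permutation p was 0.4 for Tpm3 over Tpm4 and 0.2 for Cnn1 over Cnn2, which rests on the few Cnn1 reads.

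**Figure D3:**
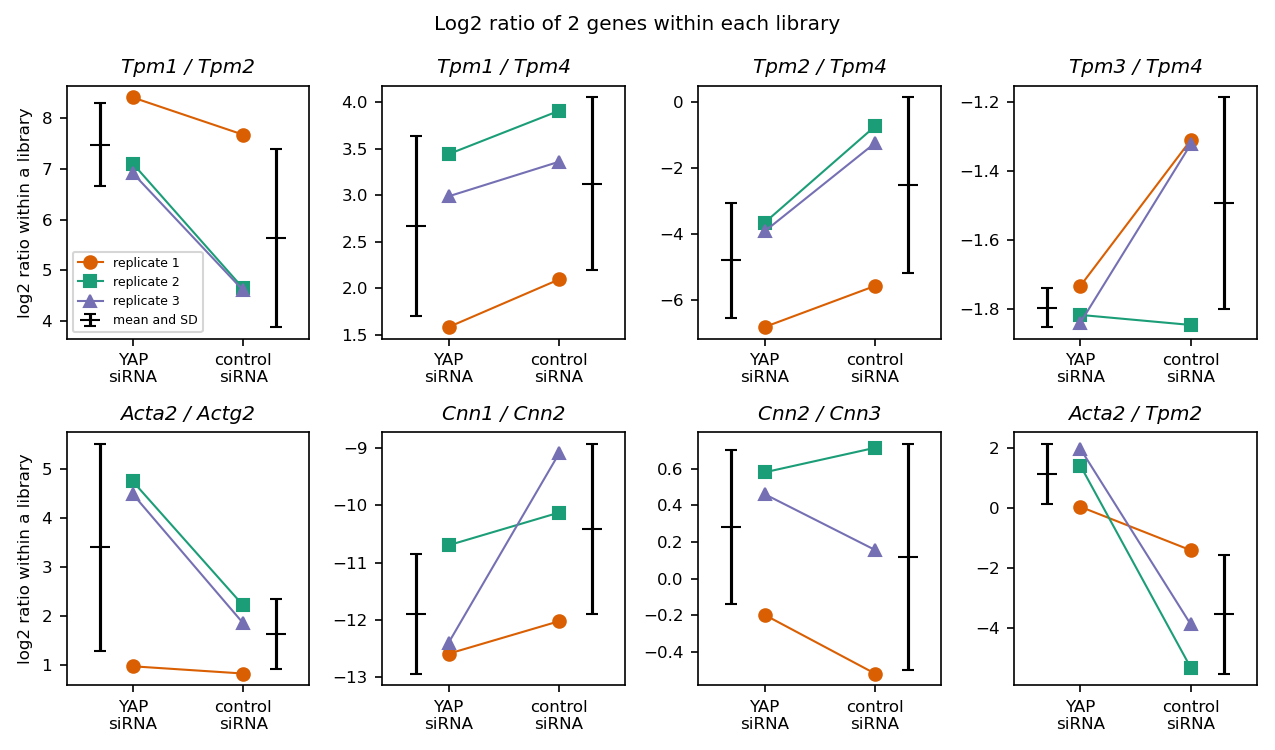
Log2 ratios between pairs of members within each library, YAP siRNA left of control siRNA, with libraries of the same number joined and black bars for the mean and SD of the 3 libraries. The libraries numbered 1 have the smallest difference between the siRNAs in Tpm1 over Tpm2, Acta2 over Actg2 and Acta2 over Tpm2.

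Levels are compared between genes per length, here in normalized counts per kilobase of the longest annotated transcript. Sequence shared with other genes was not corrected for. Of the 31-base words of that transcript, 24.8% in Cnn3, 19.6% in Tpm3 and 16.5% in Tpm4 also occur in other annotated genes, against 0.0% in Tpm1. The place of Cnn3, Tpm3 and Tpm4 in the order is therefore uncertain. Tpm1 stood far above the rest, at 9571 ± 671 with YAP siRNA and 10502 ± 1247 in control libraries (SD, n = 3 each). Tpm4 (2402 ± 1767 with YAP siRNA, 1973 ± 1545 in control), Cnn2 (2243 ± 238 with YAP siRNA, 1436 ± 264 in control) and Cnn3 (2156 ± 905 with YAP siRNA, 1642 ± 967 in control) followed. Within either group, Tpm4, Cnn2 and Cnn3 did not differ from each other beyond their spread. Tpm3 came next (632 ± 491 with YAP siRNA, 676 ± 596 in control). Acta2, at 243 ± 186, stood above Tpm2, at 77.5 ± 34.1, in YAP siRNA libraries, whereas in control libraries Acta2, at 27.0 ± 11.5, stood below Tpm2, at 378 ± 262. Tagln (60.9 ± 30.5 with YAP siRNA, 15.3 ± 4.54 in control) and Actg2 (24.9 ± 8.87 with YAP siRNA, 15.1 ± 11.1 in control) were low, and Cnn1 was at 0.283 ± 0.489 with YAP siRNA and 0.992 ± 1.20 in control. With the median transcript length in place of the longest, the mean of Cnn3 was above that of Tpm4 in both groups, and the mean of Tpm3 was above that of Cnn2 in control, where only control library 1 had Tpm3 above Cnn2. With that median length, YAP siRNA library 1 had Acta2 at 59.7 and Tpm2 at 61.3, the reverse of their order with the longest.

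Among the 4 tropomyosins, per length, Tpm1 made up 63.3%, 85.7% and 81.6% of the sum in the YAP siRNA libraries, against 69.5%, 85.8% and 81.1% in the control libraries. Tpm2 made up 0.247%, 0.827% and 0.898% in the YAP siRNA libraries, against 0.452%, 4.54% and 4.41% in the control libraries. Tpm4 held 28.7%, 10.7% and 14.0% in the YAP siRNA libraries, against 22.1%, 7.75% and 10.7% in the control libraries. In Tpm1 and Tpm4 the shares differed more between library 1 and the others than between the siRNAs. As Tpm3 and Tpm4 share sequence with other genes, which was not corrected for, the shares of all 4 tropomyosins are uncertain.

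The libraries numbered 1 differed from the others by unequal amounts in the members. Relative to the libraries numbered 2 and 3, over both conditions, they were higher by 1.93 on the log2 scale in Tpm3, 1.74 in Tpm4, 1.15 in Cnn3, 1.14 in Actg2, 0.31 in Cnn2 and 0.16 in Tpm1, and lower, by -2.06 in Tpm2, -1.29 in Acta2 and -0.91 in Tagln. In size this exceeded the siRNA difference in 6 of the 9 tested members, all but Acta2, Tagln and Cnn2. Tpm3, Tpm4 and Cnn3 share sequence with other annotated genes: 19.3% of the 31-base words of Tpm3 occur in the retrogene Tpm3-rs7, 16.5% of those of Tpm4 in Gm7809 and 16.4% of those of Cnn3 in Gm4815. Those shares are of the longest annotated transcript of each gene. In the longest coding transcript, the share of words that occur in any annotated pseudogene was 6.49% in Tpm3, 16.5% in Tpm4 and 27.1% in Cnn3. It was 1.23% in Actg2 and 0.0% in Tpm2. As the transcripts can differ, this share is not a part of the shares above. Over all tested genes, the median replicate 1 difference was -0.13 for the 8289 genes with no word in a pseudogene, 0.11 for 3478 genes with up to 10%, 1.26 for 776 genes with 10 to 50% and 1.25 for 193 genes above that. The median siRNA difference in the same bands was -0.010, 0.029, 0.054 and 0.092. The part of shared sequence in the members' values was not tested.

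**Figure D4:**
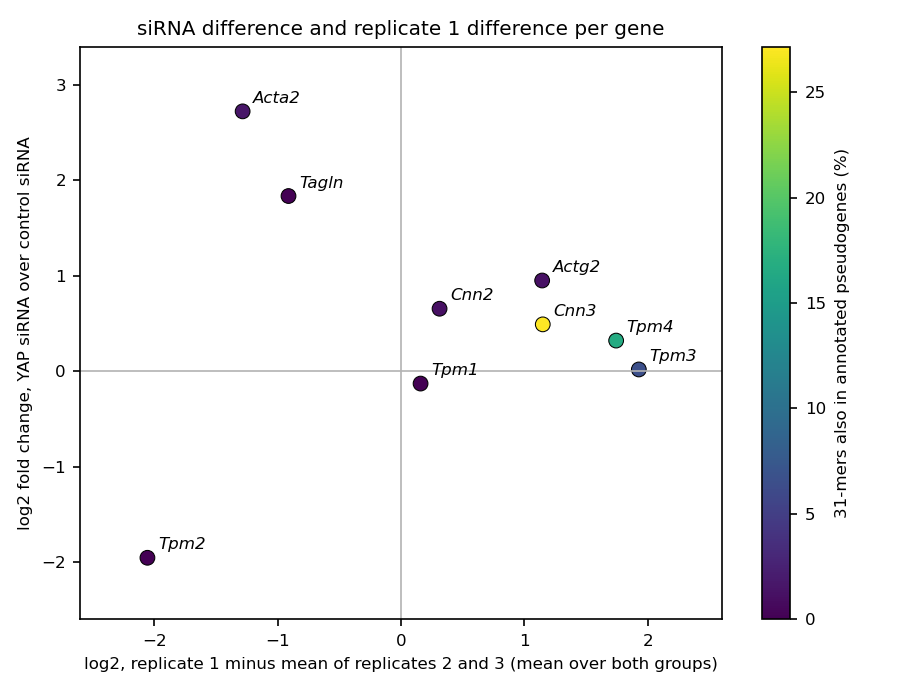
Log2 difference of the libraries numbered 1 from those numbered 2 and 3 (horizontal) against the log2 difference of YAP siRNA from control siRNA (vertical) for the 9 tested members, coloured by the percentage of their 31-base words that occur in annotated pseudogenes. Tpm3 and Tpm4 lie far to the right and near 0 on the vertical axis, and Acta2 and Tpm2 lie to the left on opposite sides of it.

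Of the 10 members, 8 have a promoter in RefSeq's table for build GRCm38.p6 (250 bases before to 50 after the start of the transcript), and 2 promoters of members that rose are shown because they hold the letters of factors named above. Capitals mark 10-letter runs of the CArG box kind (CC, 6 letters, GG) or GGAATG, the letters of a TEAD site. Acta2 lies at chr19:34255324-34255623 on the minus strand and Cnn2 at chr10:79988350-79988649 on the plus strand, each 5′ to 3′ in the direction of the gene.
Acta2: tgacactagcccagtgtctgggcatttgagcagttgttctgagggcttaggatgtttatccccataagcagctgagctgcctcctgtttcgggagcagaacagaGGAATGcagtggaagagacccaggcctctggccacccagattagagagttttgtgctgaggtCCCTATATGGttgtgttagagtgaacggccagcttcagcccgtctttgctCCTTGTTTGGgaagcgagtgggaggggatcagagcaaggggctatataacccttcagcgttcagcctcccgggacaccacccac
Cnn2: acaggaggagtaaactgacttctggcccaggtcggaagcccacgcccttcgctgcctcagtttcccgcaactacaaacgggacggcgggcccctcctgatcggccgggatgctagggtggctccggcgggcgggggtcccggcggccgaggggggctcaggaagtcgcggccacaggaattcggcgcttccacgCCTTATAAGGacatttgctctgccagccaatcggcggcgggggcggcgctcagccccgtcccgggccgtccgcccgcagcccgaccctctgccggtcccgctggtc

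The CArG box with 6 letters A or T in its middle, a palindromic pattern searched on both strands, was found in 1.63% of 32851 RefSeq promoters and, of the members, in Cnn2, 56 bases before the start. With 1 of the 6 letters G or C it was found in 8.5% of promoters, in Acta2 at 84 and 34 bases before the start, and in both annotated promoters of Tpm3. GGAATG or its complement CATTCC was found in 14.7% of promoters, 146 bases before the start in Acta2 and 56 before it in Tpm1. None of these patterns was in the windows of Tpm2, Tpm4, Cnn1 or Cnn3, which says only that the letters are not there. A match is a description of the sequence, and nothing was measured at these sites.

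The 7 letters CTACATA, picked in earlier work on these same data because genes with it in the 3′ UTR were lower with YAP siRNA, were looked for in the members' 3′ UTRs. They occurred in 2 of the 10 members, Tpm1 and Tpm2, 1 copy each, in 10 of 18 Tpm1 transcripts and in 3 of 3 Tpm2 transcripts with a 3′ UTR in GENCODE for GRCm38. Both sites are shown with their surroundings, the 7 letters in capitals, because the 2 genes share the site and differ in response.
Tpm1: agatctaggcaCTACATAtgtaattggta
Tpm2: tgcctaccagaCTACATAgttgcctcctc

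Tpm2 fell and Tpm1 did not pass, as given above. The site begins at base 1798 of 1899 in the longest Tpm1 3′ UTR and at base 1167 of 1210 in that of Tpm2. Over all tested genes with a 3′ UTR of at least 50 bases, the median log2 difference was -0.044 for the 1436 with the 7 letters and 0.014 for the 10715 without them. As the 7 letters were chosen on these libraries, the medians are a description.

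The nearest annotated protein-coding genes on either side of the members, leaving out genes that overlap them, were read in the same fit. Most of those tested did not pass, and only 1 of these is named below. Over all genes tested, 8.32% rose and 8.96% fell. Fas, the death receptor gene beside Acta2, rose by 1.77 on the log2 scale (limma adjusted p 0.00237 when blocked, 0.241 unblocked), with 162, 335 and 330.0 normalized counts in YAP siRNA libraries against 44.0, 82.6 and 121 in control libraries. Stambpl1, on the other side of Acta2, fell by 0.65 (limma adjusted p with the block 0.0117). Stambp beside Actg2 rose by 0.65, Lactb beside Tpm1 rose by 0.59 and Tmem259 beside Cnn2 fell by 0.50, with limma adjusted p with the block of 0.0151, 0.0128 and 0.0334. Without the libraries numbered 2, the limma adjusted p with the block was 0.0302 for Fas, and 0.147 to 0.19 for the 4 other neighbours that passed. Tln1, the talin gene beside Tpm2, differed by 0.11 with an adjusted p of 0.376 in the same limma fit. Tagln overlaps Pcsk7 on the opposite strand, and whether the counting used strand is not given in the sources used here, so reads of the pair cannot be told apart. Tagln also overlaps Gm48529, and Tpm4 overlaps Gm26586 and Gm16091, all on the opposite strand. Cnn3 overlaps Gm42928 on the opposite strand and Gm42929 on the same strand, so the same limit applies to these members.

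Of the 4 other actins tested, 0 passed in either direction, which does not show that they were unchanged. Actb differed by 0.027, Actg1 by 0.037, Acta1 by -0.087 and Actc1, which had the smallest p, by 0.52 (limma adjusted p with the block 0.63). Actb had 33991 to 116458 normalized counts, but Actg1 had 53.8 to 109.4, Acta1 10.1 to 27.1 and Actc1 0 to 86.5. The interval was -1.14 to 0.96 for Acta1 and -1.02 to 2.05 for Actc1. Of the 31-base words of Actb and Actg1, 25.7% and 57.1% also occur in annotated pseudogenes, so their counts are uncertain where reads were shared. Of 19 tested genes of smooth muscle contraction and its cytoskeleton, 3 rose and 2 fell, with a median of 0.26. Over all genes tested, 8.32% rose and 8.96% fell. Caldesmon (Cald1), which works with tropomyosin on the thin filament, rose by 0.54 (adjusted p 0.00777 in limma with the block), at 35074 ± 4546 normalized counts with YAP siRNA and 23913 ± 639 in control (SD, n = 3 each). In limma with the block, the intermediate filament protein synemin (Synm) rose by 0.59 and the LIM protein Csrp1 by 0.34 (adjusted p 0.0499). Integrin alpha 8 (Itga8) fell by 1.98 (adjusted p 0.00186) and alpha-actinin 1 (Actn1) by 0.38 in the same limma fit. Itga8 resembled Tpm2: 89.0, 224 and 332 normalized counts with YAP siRNA, against 223, 1250.3 and 1470.3 in control. Without the libraries numbered 2, the calls of Cald1, Synm, Csrp1 and Actn1 ended (limma adjusted p with the block 0.101, 0.119, 0.356 and 0.322), and that of Itga8 did not (0.0146).

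The counts of the next lists stand against 8.32% of all genes tested that rose and 8.96% that fell. Of 9 tested genes of serum response factor, its cofactors and partners, 1 rose, the ETS partner Elk3 (0.36, limma adjusted p with the block 0.0245), and 0 fell. Srf itself differed by 0.50 with an adjusted p of 0.0645 in the same fit, while edgeR and DESeq2 with the block gave 0.0464 and 0.0223. Its groups overlapped, and the within-number differences were -0.015, 0.80 and 0.71. For Srf, the limma adjusted p with the block was 0.407 without the libraries numbered 2 and 0.164 without those numbered 3. Myocd, the cofactor of smooth muscle, had 0 reads in 5 of the 6 libraries. Of 17 tested proteins that bind the ends or sides of thin filaments, 1 rose and 2 fell: moesin (Msn), which links actin to the membrane, rose by 1.01, the pointed-end cap Tmod3, which binds tropomyosin, fell by 0.43, and the profilin Pfn2 fell by 0.47 (limma adjusted p with the block 0.00412, 0.0156 and 0.0245). Of 15 tested genes of non-muscle myosin II and its regulators, the formin Diap3 rose by 0.52 and the heavy chain Myh9 fell by 0.40 (limma adjusted p with the block 0.0203 and 0.0181). Of 14 tested genes of TGF-beta signalling, a pathway known to raise Acta2 in fibroblasts, 3 rose and 4 fell: Tgfbr3 rose by 0.68, while Tgfbi fell by 0.54, Tgfb1 by 0.64 and Tgfb2 by 0.62 (adjusted p 0.00502, 0.00546, 0.0175 and 0.0201 in limma with the block). Without the libraries numbered 2, the limma adjusted p with the block stayed under the threshold for Msn (0.0292) and was 0.0779 to 0.275 for the other 9 genes named as passing in these 4 lists.

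Markers of other cells were read beside these values, in the blocked fit where 8.32% of all genes tested rose and 8.96% fell. Of 6 tested smooth muscle or pericyte markers 1 rose and 2 fell. Kcnj8 and Abcc9 were at 0 in every library, and Myh11, the smooth muscle myosin, was at 3.04 to 8.29 normalized counts. Pdgfrb and Cspg4, named after their values were seen because they make up most of the sum, moved in opposite directions. Pdgfrb, a receptor of pericytes and fibroblasts, had 16542, 21542 and 22277 normalized counts in YAP siRNA libraries, against 12079, 9865 and 8601 in control libraries, and rose by 0.98 (limma adjusted p 0.00602 when blocked, 0.165 unblocked). Cspg4, the NG2 proteoglycan, had 8577, 9374 and 9295 in YAP siRNA libraries, against 9930.2, 13371 and 15372 in control libraries, and fell by 0.48 (limma adjusted p 0.0195 when blocked, 0.359 unblocked). The other one that fell was Itga8. The summed level of the 12 listed was 25554 to 32621 in YAP siRNA libraries and 22481 to 26796 in control libraries. Of 8 tested fibroblast markers 1 rose and 3 fell, Fap was at 0, and the sum was 221990.5 to 431976 with YAP siRNA and 274894 to 572614 in control. Skeletal muscle markers gave 0 calls of 3 with Myog and Myod1 at 0, endothelial markers 0 of 3 with Emcn at 0, and macrophage markers 1 of 4, Csf1r, which fell, with Tyrobp at 0. Of 11 Schwann cell markers 2 rose and 1 fell. The part of other cell types in the members' values was not tested.

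The genes whose pattern over the 6 libraries was most like Acta2, by Pearson's r of log2 values among 11217 genes, were Rarg (0.999), Pnrc1 (0.992), B230217C12Rik (0.988), Snn (0.987) and Zfp3 (0.987). Their changes were much smaller: Rarg rose by 0.44 on the log2 scale. Those most like Tpm2 were Mttp (1.00), Ptprk (0.999), Fam20b, Hk1 and Fryl (0.998 each). Ptprk had 2469, 3826 and 3936 normalized counts with YAP siRNA, against 3398, 7932 and 7990.2 in control, with library 1 the lowest of each group as in Tpm2. With 6 libraries that share the replicate 1 split, these values describe likeness and carry no test.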

How the data were processed

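Members and gene lists were chosen with earlier results of these data known. Reads were aligned with TopHat2 2.0.9 to mm9, counted with HTSeq 0.6.1 and normalized with DESeq 1.14.0, per the submitters' processing notes. The annotation, strand setting and treatment of multi-mapped reads were not given there. The deposited values are a normalized signal, gene counts divided by 1 factor per library, and all values came out as whole reads within 0.01 reads in all 6 libraries (100.0%), 18025132 to 60078880 reads each.

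Tests used limma 3.58.1 in R 4.3.3 on log2(value + 1), which understates changes of low genes, with trend, two-sided, for genes with a mean of at least 10. edgeR 4.0.16 and DESeq2 1.42.0 on the recovered reads were alternatives. Deviations from the group means of same-numbered libraries correlated at 0.788, 0.705 and 0.532 for numbers 1, 2 and 3, each above 0.1, so the number was taken as a block. The pairing comes from that check and not from a label, and libraries 2 and 3 also correlated across numbers (0.552 and 0.516), so the check mostly reflects the libraries numbered 1, which stood apart in both groups. Named genes were Yap1, all members, up to 4 called genes per list by smallest p (otherwise the 1 with the smallest p), the 5 genes most like Acta2 and Tpm2, and genes next to members. The other actins, Csrp1, Srf, Myocd and some marker genes were named beyond that rule. Symbols were matched to GENCODE and RefSeq for GRCm38, which differs from mm9, so no gene coordinates are given beyond RefSeq's own promoter windows. Some marker genes are not reported here.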

Additional observations from a re-analysis of the deposited data

How the results depend on the processing

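With the replicate block, 5 members rose and 1 fell. These counts were 0 and 0 without a filter on low values and 0 and 0 without the trend of variance on level, where 0 and 0 or 12 and 18 of all genes were called higher and lower. Leaving out the libraries numbered 1, 2 or 3 in turn gave 0 to 5 members higher. Over all genes it gave 123 to 2804 higher and 177 to 2792 lower, against 1067 and 1149 (538 and 590.0 without number 3). At an adjusted p under 0.01 the counts were 1 member higher, 262 genes higher and 357 lower, and at a change of at least 1.5-fold 3 members, 610.0 and 634.

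Without the block, DESeq2 called 3 members higher and 1 lower (330.0 and 399 genes), the block 5 and 1, and, in a setting chosen after seeing the data, the libraries without number 1 of both groups 3 and 1 (1912 and 2106 genes). Leaving out 1 library gave 0 to 1 members lower, 0 to 192 genes higher and 0 to 305 lower, highest without control library 1. No filter gave 3 genes lower. Tpm3 turned to -0.089 in edgeR and -0.098 in DESeq2 without the block, where both gave values above 0 with it (0.014 and 0.012). In limma without number 2 it was -0.20, with or without the block. Leaving out 1 library gave -0.57 to 0.71 for Tpm3 and -0.24 to 0.92 for Tpm4. The cause of these differences was not tested. The 5 members that rose and Tpm2 kept their sign in all 12 alternatives to the blocked fit. Counting error limits Cnn1 and Actg2 most.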
